A study of Homo sapiens with 9 samples.

Results

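The genes described here encode the aminoacyl-tRNA synthetases, the enzymes that join each amino acid to its transfer RNA. The members were the rows of the raw count table for a list of 35 gene names, 19 of cytosolic enzymes, whose symbols end in 1 or carry no number, and 16 of mitochondrial enzymes, whose symbols end in 2. All 35 were found among the 59453 gene names of the table, and all 35 were among the 16556 genes that passed the filter on low counts and were tested. Transcripts were measured by RNA-Seq in MDA-MB-231, an established human line of triple-negative breast cancer, with 3 replicates in each of 3 groups, untreated cells, cells treated with TEPA for 8 h and cells treated with TEPA for 24 h. TEPA is a chelator that binds copper, and its labelled concentration was 8 mM in both treated groups, while the study's sequencing methods state a lower one. The time is taken from the label of each sample, and a treatment note shared by the samples names only 24 h. All groups were grown in flasks in DMEM with 10% fetal bovine serum, and a single untreated group served both times, so the comparisons at 8 h and at 24 h share their controls. The untreated samples carry no time, so hours in culture may differ between the groups. Their part cannot be told apart from that of TEPA. The labels do not say whether replicates were separate cultures, and p-values then measure only the spread between these samples.

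Each synthetase recognises an amino acid and the transfer RNAs that belong to it, and a cell needs the full set for the ribosomes in its cytosol and a separate set for the ribosomes inside its mitochondria. Both sets are encoded in the nucleus. Glycyl- and lysyl-tRNA synthetase are exceptions, since GARS1 and KARS1 each give rise to a cytosolic and a mitochondrial form. The cytosolic phenylalanyl enzyme has a pair of subunits, FARSA and FARSB, and EPRS1 carries the glutamyl and the prolyl activity on a single chain. The enzymes fall into class I and class II, which differ in the fold of the catalytic domain. Many cytosolic members are known targets of ATF4, the transcription factor of the amino acid response, which raises amino acid supply and transfer RNA charging when amino acids run short, and the mitochondrial set is mostly outside that response.

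Total counts per library ran from 34633755 to 49342659. Of the markers of the line, VIM, CD44, KRT8 and KRT18 were abundant, EPCAM and CDH1 were low, ESR1 and PGR were below the filter, and ERBB2 was detectable, at 77.3 to 87.1 CPM in untreated cells, where CPM is the count scaled to a fixed library size. Of 4 markers of other cell types, PTPRC and DCN were below the filter while PECAM1 and COL1A1 were tested, and the summed level of the 4 was 16.7 to 18.3 CPM untreated, 33.0 to 33.9 at 8 h and 26.0 to 26.5 at 24 h. The sum follows COL1A1, which was called higher at both times (2.37 and 1.32 times the untreated level), while PECAM1 was called lower at 8 h (0.295 times) and higher at 24 h (2.26 times). Transcripts encoded by the mitochondrial genome took 1.79 to 2.91% of the counts in untreated libraries, 3.61 to 4.02% at 8 h and 1.89 to 2.02% at 24 h. The part of these shifts in the results was not tested. A gene was called higher or lower at a Benjamini-Hochberg adjusted p under 0.05 over all genes tested, from edgeR's quasi-likelihood test, and log2 fold changes are given with their standard error (SE).

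The letters TGATGNAA, the core of the element that ATF4 binds together with C/EBP proteins, were looked for on both strands of the RefSeq promoter windows, which run from 250 bases before to 50 bases after each gene's start on GRCh38.p14. A window was at hand for 30 of the 35 members, the exceptions being AARS2, LARS1, VARS1, VARS2 and YARS1. The letters stood in 8 of the 30, against 4.46% of all 27305 genes with a window. They stood in 7 of 16 cytosolic members (AARS1, CARS1, GARS1, IARS1, MARS1, NARS1 and TARS1) and in 1 of 14 mitochondrial members (YARS2). The matches are printed with 10 bases on either side, 5′ to 3′ along the gene's strand, since the cytosolic genes that carry them are set against the others in the results. Capitals mark the match, which reads TGATGNAA or its reverse complement.

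AARS1 (chr16:70289676-70289703, minus strand): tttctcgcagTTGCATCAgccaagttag

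CARS1 (chr11:3057408-3057435, minus strand): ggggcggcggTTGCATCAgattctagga

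GARS1 (chr7:30594835-30594862, plus strand): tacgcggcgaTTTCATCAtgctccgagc

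IARS1 (chr9:92293693-92293720, minus strand): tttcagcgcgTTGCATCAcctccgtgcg

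MARS1 (chr12:57488054-57488081, plus strand): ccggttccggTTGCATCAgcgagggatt

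NARS1 (chr18:57621805-57621832, minus strand): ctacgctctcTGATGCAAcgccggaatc

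TARS1 (chr5:33440957-33440984, plus strand): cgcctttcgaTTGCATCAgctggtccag

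YARS2 (chr12:32756077-32756104, minus strand): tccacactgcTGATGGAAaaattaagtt

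In CARS1, GARS1, IARS1, MARS1, NARS1 and TARS1 the match lay within 33 bases of a start, and in AARS1 and YARS2 it lay 180 or more bases before it. The E-box letters CACGTG, a site of MYC and related factors, stood in 4 of the 30 windows, those of IARS1, CARS2, EARS2 and MARS2, against 8.77% of all genes. CCAAT, the site of the factor NF-Y, stood in 16 of the 30, against 39.7% of all genes, and TGACGTCA, the cAMP response element, in 0 of the 30, against 2.25%. A match is a description of the letters and not a site shown to be bound.

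In untreated cells the cytosolic set was the more abundant. Expressed as CPM per kilobase of the canonical transcript in GENCODE 44, so that genes can be compared, cytosolic members had a median level of 65.9 (15.7 to 143) and mitochondrial members of 8.75 (0.0956 to 78.9). The highest cytosolic level was that of TARS1, the threonyl enzyme, at 143 CPM per kilobase, followed by KARS1 at 113, SARS1 at 107 and QARS1 at 99.4, and the lowest was that of FARSB at 15.7. IARS2 and CARS2, the mitochondrial isoleucyl and cysteinyl enzymes, stood among the cytosolic members at 78.9 and 67.1 CPM per kilobase, and every other mitochondrial member was at 19.0 or below. SARS2 and VARS2 were the lowest of all, at 1.70 and 0.0956 CPM per kilobase. In those 2 genes 48.2% and 63.0% of exon bases lie under read-through gene models on the same strand, against at most 4.1% in any other member, and the part of this overlap in their low counts was not tested.

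**Figure D1:**
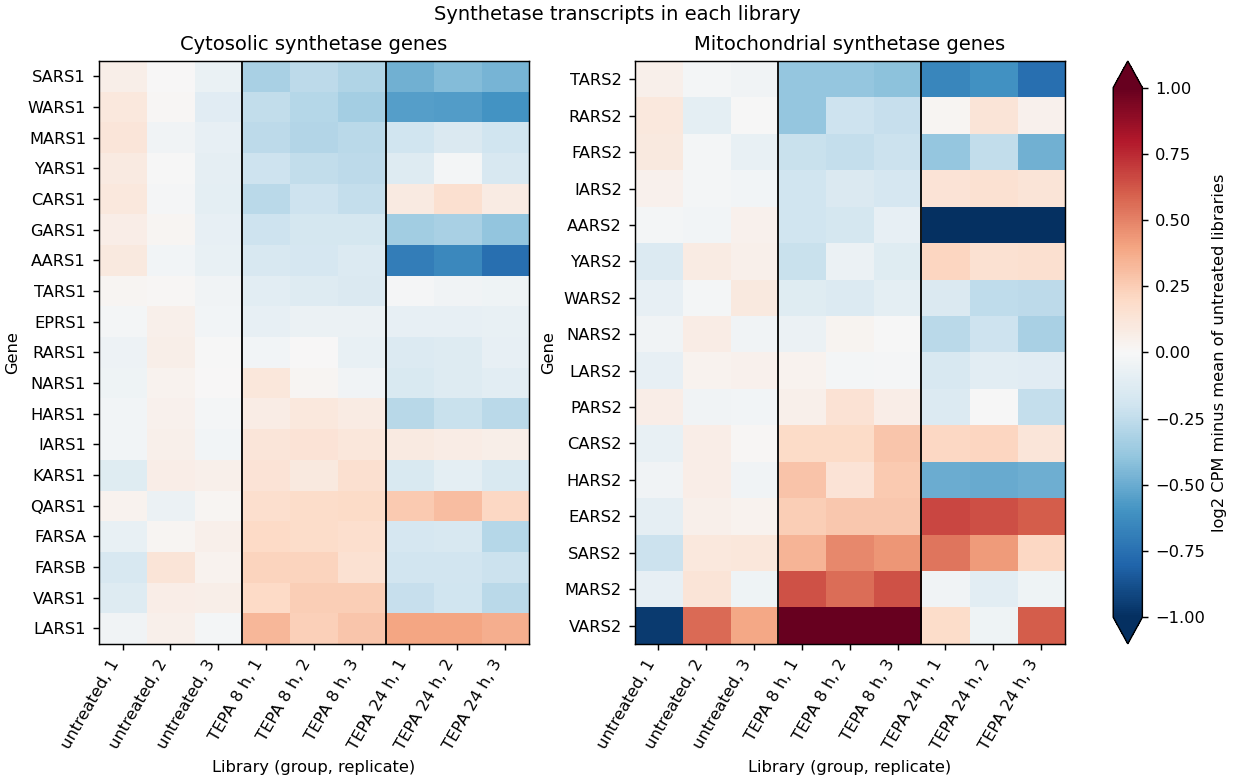
Each row is a synthetase gene and each column a library, and the colour is the log2 CPM minus the mean log2 CPM of the 3 untreated libraries, cut at -1 and 1. Rows are ordered by the log2 fold change at 8 h; the 24 h libraries are bluest for AARS1, WARS1 and SARS1 on the left and AARS2, TARS2 and HARS2 on the right, EARS2 and LARS1 are red there, and MARS2 and VARS2 are red at 8 h.

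At 8 h of TEPA, the synthetases moved in both directions and by small amounts. Of the 19 cytosolic genes, 7 were called higher and 8 lower, and their median log2 fold change was -0.03. Of the 16 mitochondrial genes, 6 were called higher and 5 lower, and their median was -0.01. Over all genes tested, 25.2% were called higher and 24.5% lower, with a median of 0.00. In 29 of the 35 members the untreated and 8 h libraries did not overlap in CPM, against 57.8% of all genes. Only 2 members, MARS2 and VARS2, passed a log2 limit of 0.5 as well as the adjusted p, against 17.8% of all genes.

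The 8 cytosolic genes called lower at 8 h all belonged to a list of amino acid response genes. In this list of 12 cytosolic synthetases known as ATF4 targets (AARS1, CARS1, EPRS1, GARS1, IARS1, LARS1, MARS1, NARS1, SARS1, TARS1, WARS1 and YARS1), 8 were called lower and 2 higher at 8 h, and the median log2 fold change was -0.18. Of the other 7 cytosolic genes (FARSA, FARSB, HARS1, KARS1, QARS1, RARS1 and VARS1), 5 were called higher and 0 lower, with a median of 0.18. Across 13 other ways of fitting the data, the list held 8 to 9 lower and 1 to 2 higher, and the other 7 genes held 3 to 6 higher and 0 lower, with 3 without TEPA 8 h replicate 2, where FARSB and KARS1 were not called. Over all genes tested, 24.5% were called lower and 25.2% higher at 8 h. The list and the count were set with earlier results of these data known. By promoter letters, 5 of the 7 cytosolic genes with TGATGNAA were called lower and 1 higher, while of the 9 with a window and without the letters 2 were called lower and 4 higher. All 7 genes with the letters belong to the list, so this split is not separate from it. The 2 lower genes without the letters, SARS1 and WARS1, belong to the list too.

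SARS1, the seryl enzyme, was at 213, 205 and 195 CPM in the untreated libraries and at 163, 170 and 166 CPM at 8 h, which differ by -0.30 ± 0.039 on the log2 scale (SE, n = 3 per group; adjusted p = 1.5e-05). WARS1, the tryptophanyl enzyme, which is also induced by interferon, went from 145, 136 and 125 CPM to 114, 111 and 107 CPM (log2 fold change -0.29 ± 0.049, adjusted p = 0.00014). MARS1, the methionyl enzyme, went from 191, 172 and 166 CPM to 147, 144 and 146 CPM (-0.28 ± 0.046, adjusted p = 0.00012). In all 3 genes each 8 h library lay below each untreated library, and untreated replicate 1 was the highest library. CARS1 was at 175, 161 and 152 CPM untreated and at 135, 141 and 138 CPM at 8 h (-0.24 ± 0.046, adjusted p = 0.00055). GARS1, which serves both compartments, was at 228, 220 and 205 CPM untreated and at 188, 192 and 192 CPM at 8 h (-0.19 ± 0.041, adjusted p = 0.0011). YARS1, AARS1 and TARS1 were also called lower, with log2 fold changes of -0.24, -0.16 and -0.13.

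IARS1 and LARS1 were the genes of the list called higher. Both belong to the multi-synthetase complex, a cytosolic assembly of synthetases held by scaffold proteins, and LARS1 is also known as a leucine sensor of the mTORC1 pathway. LARS1 was at 172, 182 and 174 CPM untreated and at 222, 208 and 213 CPM at 8 h (log2 fold change 0.28 ± 0.037, adjusted p = 1.4e-05). IARS1 was at 398, 421 and 398 CPM untreated and at 442, 447 and 439 CPM at 8 h (0.125 ± 0.034, adjusted p = 0.0068). Of the 7 synthetases of the complex (EPRS1, IARS1, KARS1, LARS1, MARS1, QARS1 and RARS1), 4 were called higher and 1, MARS1, lower, with a median of 0.125, against 3 higher and 7 lower of the 12 cytosolic genes outside it. The shares over all genes were 25.2% higher and 24.5% lower. EPRS1, the largest of these enzymes, was at 273, 286 and 271 CPM untreated and at 261, 265 and 265 CPM at 8 h (-0.07 ± 0.034, adjusted p = 0.097). It was not called, though DESeq2 called it lower (adjusted p = 0.046).

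Among the cytosolic genes called higher, FARSA and FARSB, the subunits of a single enzyme, moved alike. FARSA was at 164, 175 and 178 CPM untreated and at 198, 196 and 193 CPM at 8 h (log2 fold change 0.185 ± 0.042, adjusted p = 0.0018), and FARSB at 94.4, 115 and 108 CPM and at 123, 123 and 117 CPM (0.19 ± 0.056, adjusted p = 0.011). KARS1, the lysyl enzyme of both compartments, was at 206, 235 and 232 CPM untreated and at 246, 240 and 250 CPM at 8 h (0.13 ± 0.045, adjusted p = 0.03). In all 3 genes untreated replicate 1 was the lowest library. VARS1, the valyl enzyme, and QARS1, the glutaminyl enzyme, were called higher with log2 fold changes of 0.23 and 0.18.

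Of the mitochondrial genes, MARS2, the methionyl enzyme, rose most clearly at 8 h. It was at 19.5, 22.6 and 20.1 CPM untreated, 32.1, 30.4 and 32.1 CPM at 8 h and 20.2, 19.2 and 20.1 CPM at 24 h. The 8 h libraries stood above all others and the 24 h libraries lay within the untreated range or just below it, giving 0.60 ± 0.061 for the log2 fold change after 8 h (adjusted p = 1.1e-06) and -0.07 ± 0.063 after 24 h (adjusted p = 0.38). MARS2 has a single exon (chr2:197705369-197708395, plus strand, GENCODE 44 on hg38). VARS2 went from 6, 21 and 16 counts untreated to 39, 45 and 38 at 8 h and 18, 13 and 17 at 24 h, and its log2 fold change after 8 h was 1.60 ± 0.31 (adjusted p = 0.0005), and these few counts are those of the gene with the largest read-through overlap. SARS2, the other gene with such overlap, was at 2.80, 3.50 and 3.52 CPM untreated and 4.12, 4.55 and 4.41 CPM at 8 h (0.41 ± 0.12, adjusted p = 0.012).

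TARS2, the threonyl enzyme of mitochondria, fell most at 8 h among all members. Its libraries were at 53.5, 51.1 and 50.5 CPM untreated and at 39.6, 39.6 and 38.9 CPM at 8 h (log2 fold change -0.39 ± 0.047, adjusted p = 5.7e-06). RARS2, the arginyl enzyme, was at 28.4, 24.6 and 26.3 CPM untreated and at 20.2, 22.8 and 22.5 CPM at 8 h (-0.28 ± 0.066, adjusted p = 0.0025). FARS2, IARS2 and AARS2 were called lower by less, with log2 fold changes of -0.23, -0.17 and -0.15. CARS2, HARS2 and EARS2 were called higher, with 0.22, 0.23 and 0.26.

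Single libraries decided some of these calls at 8 h. KARS1 lost its call without untreated replicate 1 (adjusted p = 0.13), TEPA 8 h replicate 1 (0.077), replicate 2 (0.051) or replicate 3 (0.12). AARS2 lost its call without untreated replicate 3 (0.13), TEPA 8 h replicate 1 (0.12) or replicate 2 (0.11), and it was not called in 8 of the 13 alternatives, which include DESeq2 (0.065). FARSB lost its call without TEPA 8 h replicate 2 (0.05), IARS1 without untreated replicate 3 (0.052), and FARS2 and SARS2 without untreated replicate 1 (0.05 and 0.052). Conversely, HARS1 was called higher without untreated replicate 2 (0.036) and YARS2 lower without untreated replicate 1 (0.011).

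**Figure D2:**
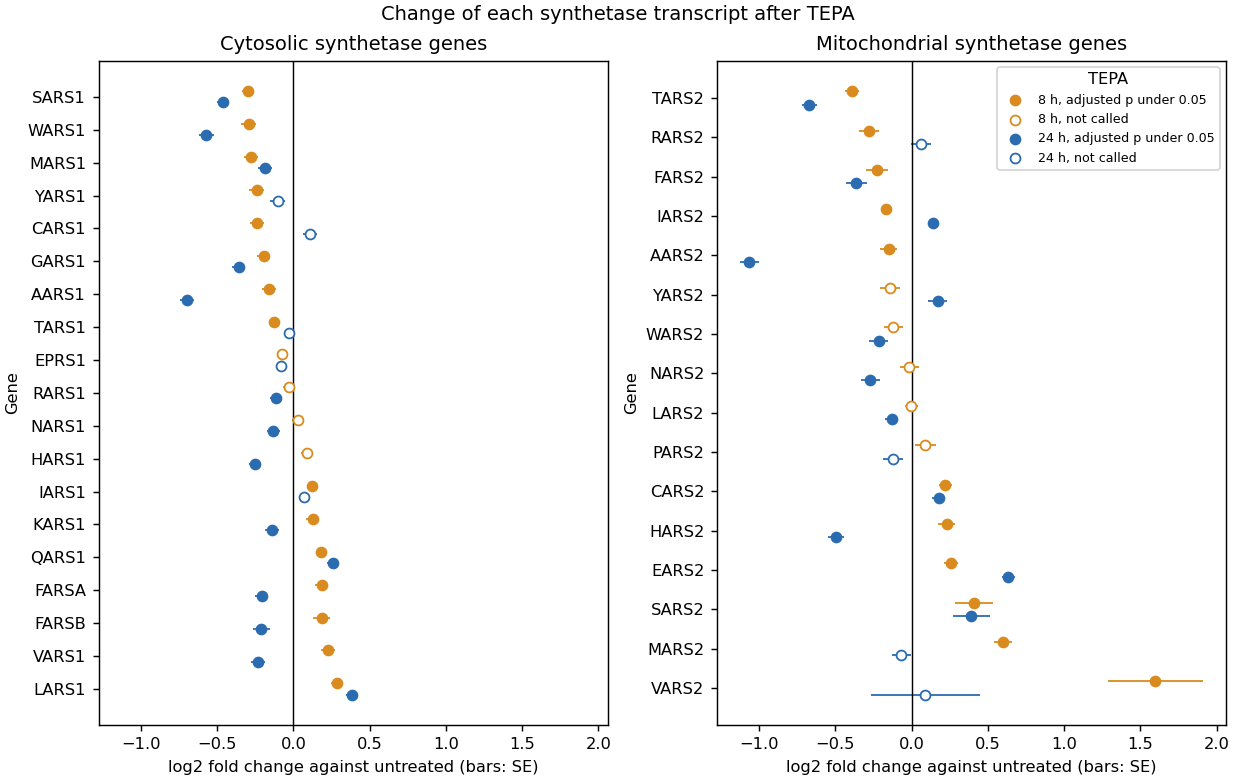
Log2 fold changes against untreated cells (horizontal axis, bars: SE) of each synthetase gene, at 8 h in orange and at 24 h in blue, with filled points for genes called at an adjusted p under 0.05. Most cytosolic points lie between -0.5 and 0.5, AARS1 and AARS2 lie farther left at 24 h than at 8 h, and VARS2 at 8 h has the highest value, 1.60, with a wide bar.

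At 24 h of TEPA, more synthetase genes were called lower than higher. Of the 19 cytosolic genes, 12 were called lower and 2, LARS1 and QARS1, higher, and their median log2 fold change was -0.14. Of the 16 mitochondrial genes, 7 were called lower and 5 higher (median -0.095). Over all genes tested, 26.8% were called lower and 25.7% higher, with a median of 0.00. The libraries of the groups did not overlap in 27 of the 35 members, against 57.2% of all genes. A log2 limit of 0.5 was passed by 5 members (AARS1, AARS2, EARS2, TARS2 and WARS1), against 18.7% of all genes.

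Both alanyl enzymes were among the lowest. AARS1 (chr16:70251983-70289707, minus strand) was at 172, 158 and 153 CPM untreated, 144, 143 and 146 CPM at 8 h and 99.6, 103 and 95.3 CPM at 24 h. AARS2 (chr6:44298731-44313347, minus strand) was at 20.5, 20.4 and 21.4 CPM untreated, 18.1, 18.4 and 19.6 CPM at 8 h and 10.1, 10.1 and 9.65 CPM at 24 h. In both genes the 3 groups did not overlap, and the 24 h libraries were the lowest. The log2 fold change at 24 h was -0.70 ± 0.045 for AARS1 (adjusted p = 5e-09) and -1.06 ± 0.062 for AARS2 (adjusted p = 1.7e-09), and AARS2 thus stood at 0.479 times its untreated level.

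TARS2 was at 32.8, 33.9 and 30.6 CPM at 24 h and thus differed from untreated cells by -0.67 ± 0.047 on the log2 scale (adjusted p = 1.4e-08). WARS1 was at 92.2, 91.9 and 89.2 CPM (-0.57 ± 0.049, adjusted p = 1.2e-07), and SARS1 at 146, 151 and 148 CPM (-0.46 ± 0.039, adjusted p = 1e-07). Each of these libraries lay below every untreated and every 8 h library of its gene. GARS1 was at 171, 174 and 165 CPM (-0.36 ± 0.041, adjusted p = 2.8e-06), and KARS1 at 202, 209 and 201 CPM, where 1 library lay above the lowest untreated one (-0.14 ± 0.045, adjusted p = 0.018). FARSA and FARSB, which had been higher at 8 h, were at 141 to 154 and 90.8 to 92.3 CPM, with the same log2 fold change of -0.21 after rounding.

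A few members were higher at 24 h. EARS2, the mitochondrial glutamyl enzyme, which also charges the glutamine transfer RNA of mitochondria before that glutamate is turned into glutamine, was at 36.3, 40.0 and 39.6 CPM untreated, 45.8, 46.5 and 46.5 CPM at 8 h and 61.2, 60.2 and 58.7 CPM at 24 h. Its groups did not overlap, and the difference of the 24 h libraries from untreated ones was 0.635 ± 0.045 on the log2 scale (adjusted p = 1.6e-08). LARS1 was at 231, 231 and 226 CPM (0.38 ± 0.037, adjusted p = 4.5e-07), above every untreated library. QARS1 went from 249, 234 and 247 CPM untreated to 274, 277 and 278 CPM at 8 h and 292, 301 and 281 CPM at 24 h (0.26 ± 0.037, adjusted p = 2.8e-05). SARS2 was at 4.73, 4.38 and 3.75 CPM (0.39 ± 0.12, adjusted p = 0.013), and CARS2, YARS2 and IARS2 were called higher with 0.18, 0.17 and 0.14.

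The amino acid response list did not stand apart from the other cytosolic genes in the same way at 24 h. Of its 12 genes, 6 were called lower and 1 higher, with a median of -0.12, and of the other 7, 6 were called lower and 1 higher, with a median of -0.21. The shares over all genes at 24 h were 26.8% lower and 25.7% higher. Of the 7 genes with TGATGNAA in the window, 4 were called lower and 0 higher, and of the 9 without, 7 were called lower and 1 higher. Of the complex, 3 genes were called lower and 2 higher, and of the 12 cytosolic genes outside it, 9 lower and 0 higher. The 3 of the complex became 1 without untreated replicate 2, untreated replicate 3 or TEPA 24 h replicate 1, where KARS1 and RARS1 were not called.

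At 24 h too, some calls rested on single libraries. KARS1 lost its call without untreated replicate 2 (adjusted p = 0.075), untreated replicate 3 (0.081), TEPA 24 h replicate 1 (0.063) or replicate 3 (0.052). RARS1 lost its call without untreated replicate 2 (0.1), untreated replicate 3 (0.052), TEPA 24 h replicate 1 (0.096) or replicate 2 (0.052), and YARS2 without untreated replicate 1 (0.15), TEPA 24 h replicate 1 (0.12), replicate 2 (0.051) or replicate 3 (0.057). LARS2 lost its call without untreated replicate 2 (0.067), untreated replicate 3 (0.086) or TEPA 24 h replicate 1 (0.087), and SARS2 without untreated replicate 1 (0.054) or TEPA 24 h replicate 1 (0.083). NARS1 lost its call without TEPA 24 h replicate 1 (0.061) and WARS2 without untreated replicate 3 (0.057). Calls were gained by CARS1 and EPRS1 without untreated replicate 1 (0.0023 and 0.032), IARS1 without untreated replicate 2 (0.032), PARS2 without TEPA 24 h replicate 2 (0.041), and YARS1 without untreated replicate 3 or TEPA 24 h replicate 2 (0.023 each). Without untreated replicate 1 or TEPA 24 h replicate 1, 3 mitochondrial genes were called higher in place of 5.

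**Figure D3:**
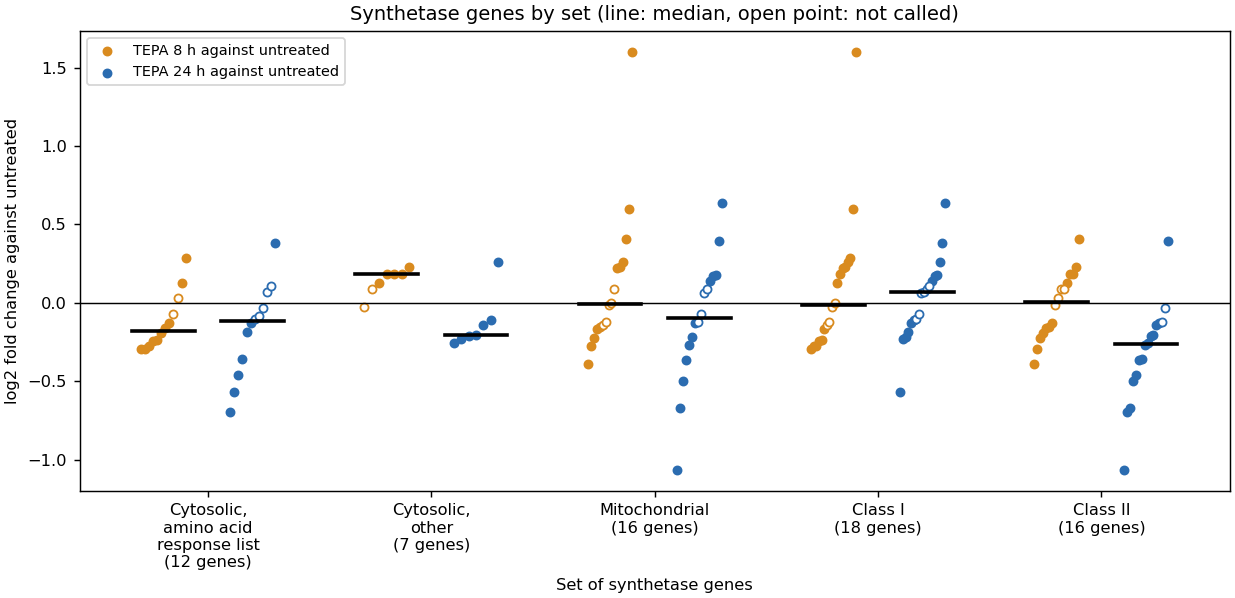
Each point is the log2 fold change of a synthetase gene against untreated cells at 8 h (orange) or 24 h (blue), filled where called, and black lines are medians. At 8 h the medians of the amino acid response list and of the other cytosolic genes lie on opposite sides of 0, at -0.18 and 0.18, and at 24 h the median of class II lies at -0.26 and that of class I at 0.07.

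By structural class, the members called lower at 24 h were mostly class II enzymes. Of 16 class II genes, 13 were called lower and 1, SARS2, higher, and their median log2 fold change was -0.26. Of 18 class I genes, 6 were called lower and 6 higher, and their median was 0.07. Over all genes tested 26.8% were called lower and 25.7% higher, and the class I counts lie near those shares. EPRS1, which holds a domain of each class, was left out of this count. Class II genes were lower in both compartments, with 8 of 9 cytosolic and 5 of 7 mitochondrial genes called lower. The class II genes that were not called were TARS1 and PARS2, at -0.03 and -0.12. At 8 h, 7 class II genes were called lower and 5 higher, and 6 class I genes lower and 8 higher, beside 24.5% and 25.2% of all genes. The 5 class II genes called higher became 3 without untreated replicate 1 or without TEPA 8 h replicate 2. Across the 13 other fits, 11 to 14 class II genes and 4 to 7 class I genes were called lower at 24 h. The classes were compared after the values of the members were known.

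Between 8 h and 24 h, which share no libraries, 18 of the 35 members were called lower and 8 higher at 24 h, against 28.8% and 26.0% of all genes, and 5 members passed a log2 limit of 0.5, against 21.2% of all genes. The medians were -0.16 for the cytosolic genes (10 lower, 4 higher) and -0.13 for the mitochondrial genes (8 lower, 4 higher), beside -0.02 for all genes. Of class II, 13 genes were called lower and 1, TARS1, higher, and of class I, 5 lower and 7 higher. Of the 7 cytosolic genes outside the amino acid response list, 5 were called lower and 0 higher, and of the 12 in it, 5 lower and 4 higher.

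The histidyl pair, chosen here after its values were seen, fell together between the times. HARS1 (chr5:140673035-140691537, minus strand) and HARS2 (chr5:140691430-140699305, plus strand) stand head to head, with RefSeq starts 85 bases apart. The stretch between their starts is shown as the plus strand of chr5:140691350-140691475 on GRCh38.p14, because with the RefSeq starts it lies before both genes, while with the GENCODE starts the genes overlap at their 5′ ends. The capitals mark the first base of HARS1, which is read leftward, and of HARS2, which is read rightward.

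HARS1 and HARS2: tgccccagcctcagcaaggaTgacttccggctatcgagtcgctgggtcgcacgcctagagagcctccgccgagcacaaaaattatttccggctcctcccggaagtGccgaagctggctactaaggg

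HARS1 was at 151, 159 and 152 CPM untreated, 162, 166 and 163 CPM at 8 h and 127, 132 and 128 CPM at 24 h. HARS2 was at 32.4, 34.8 and 32.4 CPM untreated, 40.5, 36.4 and 39.8 CPM at 8 h and 23.5, 23.4 and 23.7 CPM at 24 h. In both genes the 3 groups did not overlap, with the 8 h libraries highest and the 24 h libraries lowest. From 8 h to 24 h, the log2 fold change was -0.34 ± 0.036 for HARS1 (adjusted p = 9.7e-07) and -0.725 ± 0.054 for HARS2 (adjusted p = 2.5e-08). Against untreated cells, HARS2 was at 0.23 at 8 h and -0.50 at 24 h, and HARS1 at 0.09, not called, and -0.25. Neither window held TGATGNAA. AARS1, EARS2, FARS2, RARS2 and SARS2 also have a neighbouring gene on the other strand, whose start in GENCODE lies 10 to 181 bases from theirs.

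Other members that fell between the times included AARS2 (log2 fold change -0.91 ± 0.062), MARS2 (-0.67 ± 0.061), AARS1 (-0.54 ± 0.045), VARS1 (-0.46 ± 0.046), FARSB (-0.40 ± 0.056) and FARSA (-0.39 ± 0.042), all with an adjusted p of 2.1e-05 or below. Those that rose included EARS2 (0.38 ± 0.045), CARS1 (0.34 ± 0.046), RARS2 (0.34 ± 0.065), YARS2 (0.31 ± 0.065) and IARS2 (0.31 ± 0.034). CARS1 was at 173, 181 and 172 CPM at 24 h, back within or above its untreated range of 152 to 175. LARS1 lost its call of this comparison without TEPA 8 h replicate 2 (adjusted p = 0.13) or 3 (0.079) or TEPA 24 h replicate 1 (0.1) or 2 (0.064), TARS1 without TEPA 8 h replicate 2 (0.06) or 3 (0.069) or TEPA 24 h replicate 1 (0.088), and YARS1 without TEPA 8 h replicate 2 (0.056) or 3 (0.063) or TEPA 24 h replicate 2 (0.1). Without TEPA 8 h replicate 2 or 3, 1 cytosolic gene was called higher in place of 4, and without TEPA 24 h replicate 1 or 2, 2 were. LARS2 lost its call without TEPA 8 h replicate 1 (0.082) or TEPA 24 h replicate 1 (0.091), and PARS2 without TEPA 8 h replicate 2 (0.071) or TEPA 24 h replicate 3 (0.072). FARS2 was called lower without TEPA 24 h replicate 2 (0.039) and QARS1 higher without TEPA 24 h replicate 3 (0.041).

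**Figure D4:**
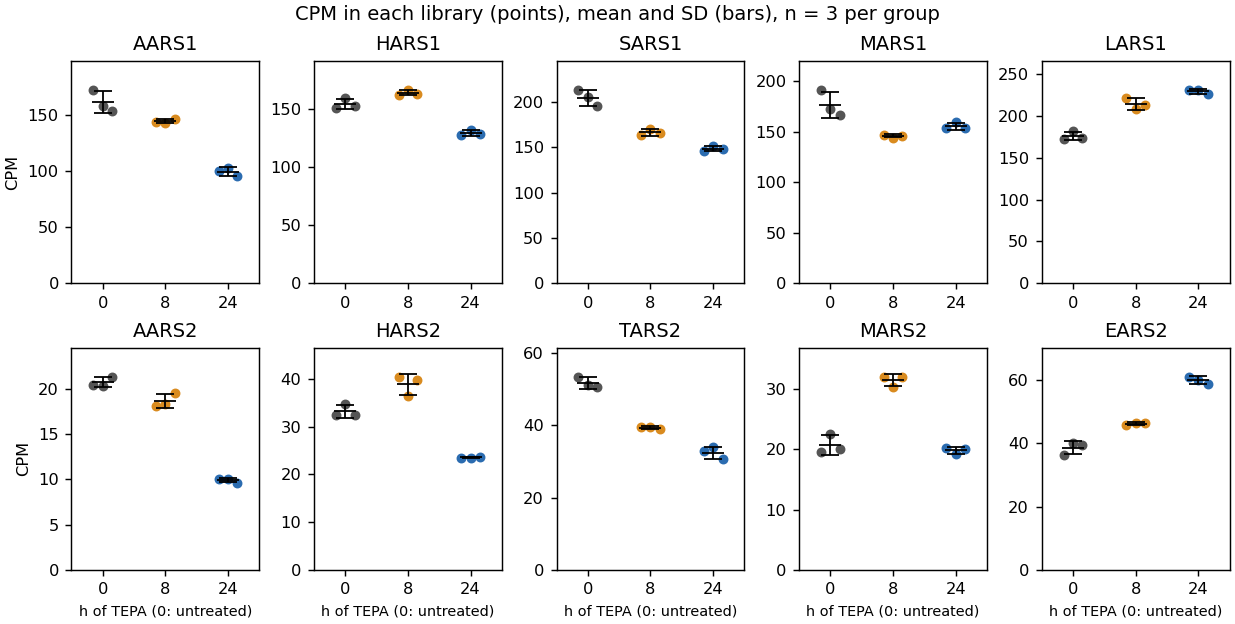
CPM of 10 synthetase genes in each library (points) with the mean and SD (bars, n = 3 per group), against hours of TEPA, with each vertical axis starting at 0. AARS1, AARS2, SARS1 and TARS2 step down at both times, HARS1, HARS2 and MARS2 are highest at 8 h, MARS1 is lowest at 8 h, and LARS1 and EARS2 step up.

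The cytosolic and mitochondrial genes for the same amino acid were set side by side in 16 pairs, with FARS2 entering against FARSA and against FARSB, and EPRS1 set against EARS2. At 8 h, both genes were called in opposite directions in 6 pairs and in the same direction in 3. The opposite pairs were CARS1 and CARS2, FARSA and FARS2, FARSB and FARS2, IARS1 and IARS2, MARS1 and MARS2, and SARS1 and SARS2. FARS2 thus stands in 2 of the 6. At 24 h, 2 pairs were called in opposite directions, LARS1 with LARS2 and SARS1 with SARS2, and 6 in the same direction. Without untreated replicate 1, the opposite pairs at 8 h were 3 in place of 6, and without untreated replicate 2 the opposite pair at 24 h was 1 and without TEPA 24 h replicate 1 there were 0. The pairs in the same direction ranged from 2 to 4 at 8 h and from 5 to 8 at 24 h over the alternatives. Calls of FARSB, FARS2, IARS1, SARS2, AARS2, LARS2, NARS1 and WARS2 behind these counts rest on single libraries, as given above. Over all genes, 25.2% were called higher and 24.5% lower at 8 h, and 25.7% and 26.8% at 24 h. How many opposite pairs would arise from the calls under random pairing was not tested. The counts of pairs are therefore not read as a separation of the compartments.

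MARS1 and MARS2 separated most among the pairs without read-through overlap. The log2 ratio of MARS1 to MARS2 CPM was 3.29, 2.93 and 3.05 without TEPA, 2.19, 2.25 and 2.19 after 8 h, and 2.92, 3.06 and 2.93 after 24 h, so that the 8 h libraries lay apart from the other 6. The log2 ratio of CARS1 to CARS2 also set the 8 h libraries apart, at -0.117 to 0.003 against 0.287 to 0.58 in the other 6. CARS2 was at 117, 129 and 124 CPM untreated, 141, 141 and 149 CPM at 8 h and 142, 143 and 134 CPM at 24 h. Unlike MARS2, CARS2 was still called higher at 24 h, where CARS1 was not called. IARS2 was at 287, 275 and 274 CPM untreated, 243, 252 and 248 CPM at 8 h and 307, 310 and 304 CPM at 24 h, lowest at 8 h and highest at 24 h, while IARS1 stayed between 422 and 447 CPM in all TEPA libraries. FARS2 was at 18.0, 16.6 and 16.0 CPM untreated, 14.4, 14.3 and 14.5 CPM at 8 h and 12.9, 14.2 and 12.1 CPM at 24 h. LARS2 was at 62.5, 67.9 and 68.2 CPM untreated and at 59.1, 61.4 and 61.0 CPM at 24 h, a log2 fold change of -0.13 ± 0.043 (adjusted p = 0.019), against 0.38 for LARS1.

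Summed over the genes of each set, the cytosolic transcripts made up 3948 ± 69.4 CPM untreated, 3938 ± 17.2 at 8 h and 3669 ± 57.3 at 24 h (SD, n = 3), and the mitochondrial transcripts 759 ± 6.52, 751 ± 8.57 and 773 ± 13.7 CPM. The ratio of the sums was 5.12 to 5.24 in the untreated libraries, 5.16 to 5.32 at 8 h and 4.72 to 4.77 at 24 h, and the 24 h libraries did not overlap with the others. These sums weigh genes by their abundance, so TARS1 and IARS1 lead the cytosolic sum and IARS2 the mitochondrial one. A sum of CPM is a share of the library and does not measure RNA per cell or the number of cells. Whether these transcripts fell or others rose cannot be told apart here.

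Among partners of the synthetases, AIMP1, AIMP2 and EEF1E1 are the scaffold proteins of the multi-synthetase complex. AIMP1 went from 45.2, 51.5 and 49.3 CPM to 69.4, 63.7 and 65.0 CPM at 8 h (log2 fold change 0.44 ± 0.055, adjusted p = 8.1e-06) and was at 44.1 to 48.2 CPM at 24 h. AIMP2 was called lower at 24 h (-0.31 ± 0.052, adjusted p = 0.00013), and EEF1E1 was not called at either time. Of GATB, GATC and QRSL1, the subunits that turn glutamate on mitochondrial glutamine transfer RNA into glutamine after EARS2 has charged it, none was called at 8 h, and GATB (0.45) and GATC (0.19) were called higher at 24 h. MTFMT, which formylates the methionyl transfer RNA that MARS2 charges, had log2 fold changes of -0.18 and -0.13 and was not called. Of 5 genes of transfer RNA export, end repair and proofreading, XPOT, TRNT1 and AARSD1 were called higher at 8 h, and XPOT and TRNT1 higher and DTD1 lower at 24 h, and 34.2% of the exon bases of AARSD1 lie under other models on the same strand.

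The elongation factors that carry charged transfer RNA to the ribosome or move it along were mixed. Of 5 cytosolic factors, 4 were tested, and EEF1D and EEF2 were called higher at 8 h (0.355 and 0.315), with 0 lower, and at 24 h only EEF1B2 was called, lower, at -0.16. EEF1G, the factor not tested, had 0 to 1 counts per library, and 99.7% of its exon bases lie under another model on the same strand. Of 4 mitochondrial factors, TUFM and GFM1 were called higher and GFM2 lower at 8 h, and GFM2 higher and GFM1 lower at 24 h. TSFM was called at neither time, and 67.3% of its exon bases lie under such a model. The part of these overlaps in the counts was not tested. Of 14 genes of the integrated stress response, 13 were tested, and 6 were called lower and 4 higher at 8 h, and 6 lower and 2 higher at 24 h. The shares over all genes were 24.5% lower and 25.2% higher at 8 h, and 26.8% and 25.7% at 24 h, and with so few genes none of these counts of factors and stress genes is read as a difference from them. ATF4 itself was at 266, 238 and 237 CPM untreated, 208, 217 and 211 CPM at 8 h and 217, 231 and 214 CPM at 24 h (log2 fold changes of -0.22, adjusted p = 0.00099, and -0.16, adjusted p = 0.0086). DDIT3 was called lower too (-0.565 at 8 h and -1.20 at 24 h). At 8 h, ATF3, ATF5, CEBPB and EIF2AK3 were also called lower, and SESN2 (0.237), PPP1R15A (0.234) and EIF2AK4 (0.099) were called higher. TRIB3 (-0.101) and CHAC1 (-0.05) were not called at 8 h, and PSAT1 was called at neither time (-0.001 and 0.091). At 24 h, TRIB3, ATF5, PPP1R15A and EIF2AK3 were also called lower, and CHAC1 was called higher. ASNS was called higher at 8 h (0.586) and at 24 h (0.882), from 1.17 to 1.44 CPM untreated, and 49.3% of its exon bases lie under other models on the same strand.

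TARS3, a further cytosolic threonyl enzyme that is not among the 35 members, was at 4.35, 6.26 and 6.31 CPM untreated and 7.20, 7.56 and 8.33 CPM at 8 h (0.44 ± 0.12, adjusted p = 0.0062).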

How the data were processed

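RNA-Seq libraries of MDA-MB-231 cells (TruSeq stranded mRNA, paired-end, NovaSeq) were processed by the authors with FastQC, HISAT2 on hg38 and featureCounts, reverse-stranded, over exons by gene name, with Ensembl gene models. The file deposited holds raw counts per gene name and library that were not normalized. From these, genes were kept by filterByExpr in edgeR 4.0.16 (R 4.3.3) at a minimum count of 10, and the 16556 genes kept hold 99.95% of the counts. TMM factors ran from 0.978 to 1.04. All 9 libraries were fitted together with the quasi-likelihood test, with the Benjamini-Hochberg adjustment taken over every gene tested. The biological coefficient of variation was 0.0481, and intervals and SEs cover the spread between libraries. CPM use TMM-scaled library sizes. Alternatives were other scaling factors, DESeq2 1.42.0, other filters, only the groups compared, a replicate block, a log2 limit of 0.5 and leaving out each library. Leaving out SARS2 and VARS2 was added after seeing the data, and some genes are not reported here. The script was tested on simulated counts.

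Members and lists were chosen with earlier results of these data known. Values per library are given for the 4 highest and 4 lowest called members at each time, pairs called in opposite directions, and GARS1, KARS1, FARSA, FARSB and EPRS1; other genes so described (such as HARS1 and HARS2) were chosen after their values were seen. Gene positions and overlaps are from GENCODE 44, a later release than the authors' on the same build, and promoters are from RefSeq on GRCh38.p14. No 2 libraries of a group agreed within sampling noise. Untreated replicates 1 and 2 lay farthest apart, at a chi-square per gene of 21.4, against 2.38 to 8.65 for the other pairs within a group.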

Additional observations from a re-analysis of the deposited data

Results flagged for a closer look

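Of the 35 members, 26 (14 cytosolic and 12 mitochondrial) differed between the effect at 8 h and the effect at 24 h, tested directly as 24 h against 8 h with edgeR's quasi-likelihood test at an adjusted p under 0.05. Groups of 3 libraries are too small for a test of single libraries that stand apart, and no file was left unused.

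Log2 fold changes from 8 h to 24 h were lowest for VARS2 at -1.51, AARS2 at -0.912, HARS2 at -0.725, MARS2 at -0.668 and AARS1 at -0.538. VARS1 was at -0.461, FARSB at -0.396, FARSA at -0.391, HARS1 at -0.343, TARS2 and WARS1 at -0.278 each, KARS1 at -0.265, NARS2 at -0.255 and PARS2 at -0.212. Smaller decreases were those of SARS1 at -0.165, GARS1 at -0.164, NARS1 at -0.163 and LARS2 at -0.129. Of the genes that rose, EARS2 was at 0.376, CARS1 at 0.344, RARS2 at 0.339, YARS2 at 0.31 and IARS2 at 0.309, and YARS1 at 0.138, LARS1 at 0.099 and TARS1 at 0.095 rose least. The counts behind VARS2 are few, with 38 to 45 per library at 8 h and 13 to 18 at 24 h.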

How the results depend on the processing

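Over all alternatives, 1362 values of members were recomputed. Of these, 1289 kept their side of the threshold, 53 were no longer called and 20 became called. Among values called in either fit, 0 changed direction. Some values called in neither fit did change direction, such as VARS2 at 24 h, at -0.229 to 0.372 with single libraries left out. Other scaling factors moved the median of all genes by at most 0.026 on the log2 scale. With a log2 limit of 0.5, 0 cytosolic genes were called higher and 0 lower at 8 h, 0 and 2 at 24 h and 0 and 1 at 24 h against 8 h, and the mitochondrial counts were 2 and 0, 1 and 2, and 0 and 4, since most differences of these genes are smaller than that. Over all genes, 17.8%, 18.7% and 21.2% passed that limit and the adjusted p in these comparisons. With upper-quartile factors, and with at least 10 counts in every library, 4 cytosolic genes were called higher at 24 h in place of 2. Leaving out each library in turn gave 3 to 5 mitochondrial genes higher at 24 h, with 3 without untreated replicate 1 or TEPA 24 h replicate 1, and 1 to 5 cytosolic genes higher at 24 h against 8 h. Without SARS2 and VARS2, 4 of 14 mitochondrial genes were called higher and 5 lower at 8 h, and 4 higher and 7 lower at 24 h. Without GARS1 and KARS1, 6 of 17 cytosolic genes were called higher and 7 lower at 8 h, and 2 higher and 10 lower at 24 h. The shares over all genes were 25.2% higher and 24.5% lower at 8 h, and 25.7% and 26.8% at 24 h. VARS2 did not pass the filter of 10 counts in every library. The causes were not tested.

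Replicate numbers are shared between the groups, but same-numbered libraries did not deviate together over the genes tested (correlations of -0.0801 to 0.0383). No shared shift by number was thus seen. Such correlations cannot show whether same-numbered libraries were set up together, and the main fit did not pair them. With the replicate number as a block, 7 cytosolic genes were called higher and 8 lower at 8 h, 2 and 12 at 24 h, and 3 and 10 at 24 h against 8 h, and the mitochondrial counts were 6 and 4, 5 and 7, and 4 and 8. VARS2, with 6 to 45 counts per library, had the fewest counts of the members.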
